A study of Mus musculus with 18 samples.

Results

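The comparison of Elavl2 knockout (KO) with wild-type (WT) ovaries of mice at E15.5, a stage of fetal life, comprised 6 of the 18 arrays of the series, those titled KO 1 to 3 and WT 1 to 3 at that stage. The other 12 arrays held the same genotypes at E17.5 and at birth (P0), 3 for each combination. Every sample was whole ovary from XX gonads, kept in RNAlater after dissection, and its RNA was read on a 1-colour Agilent 4x44K mouse array. The labels call each sample type mixed, name no strain, and do not give the part of Elavl2 that was deleted. They do not state that the 3 samples of a group were separate animals, and p-values here cover no more than the spread among these samples, which may be technical. In whole tissue, fewer cells of a type and less RNA per cell cannot be told apart.

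The product of Elavl2 belongs to the ELAV (Hu) family, RNA-binding proteins that bind U-rich and AU-rich stretches of transcripts and act on their splicing, stability and translation. In the fetal mouse ovary at this stage, germ cells have left mitosis and move through the early steps of meiotic prophase, surrounded by pregranulosa cells that will form the follicles. The comparison asks which transcripts already differ between the genotypes in this tissue, before follicles form.

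Signal is given as the log2 intensity of a probe relative to the 75th percentile of its array, so values below 0 are common and levels of different probes are not comparable. The differences are KO minus WT, on the log2 scale, with the standard error (SE) of the fit. Between 62.6% and 73.9% of probes were well above background on each E15.5 array. Pairwise correlations over all genes lay between 0.9788 and 0.9872 among KO arrays, between 0.9927 and 0.9948 among WT arrays, and between 0.9823 and 0.99 for a KO with a WT array. The KO arrays thus differed from each other about as much as from the WT arrays. The WT arrays filled slide 1, KO 1 and KO 2 lay on slide 2, and KO 3 lay on slide 3 with replicate 3 of both genotypes at E17.5. At E15.5 no slide held both genotypes, and the effects of slide and genotype cannot be told apart there.

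KO 3 and KO 1 each stood apart from the other arrays of their group. Among 241 olfactory and vomeronasal receptor genes, a group chosen after the values were seen, the median of KO 3 lay 1.29 above the mean of KO 1 and KO 2. On the same slide, E17.5 KO 3 lay 1.81 and E17.5 WT 3 lay 1.61 above the other 2 arrays of their own groups for these genes. The red cell list, 23 genes of globins, haem synthesis and the erythrocyte membrane, had a median 2.65 above the WT mean in KO 1, against -0.83 in KO 2 and -0.20 in KO 3. Its median level was 2.45 in KO 1 and 1.09 in WT 1, against values from -1.02 to -0.80 on the other arrays. The WT mean thus included 1 high array. No member of that list passed the test. The germ cell markers Ddx4 and Dazl were well above background on all 6 arrays. Ddx4 averaged 3.88 ± 0.05 in KO and 3.86 ± 0.04 in WT (SD, n = 3 each), and Dazl averaged 3.71 ± 0.08 in KO and 3.37 ± 0.08 in WT, a difference that missed the threshold (adjusted p = 0.229).

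Elavl2 itself was read by 2 probes, at chr4:90918411-90918470 and chr4:90919418-90919477 (mm9). The first gave 1.88, 2.02 and 2.11 in KO ovaries, against 1.97, 2.08 and 2.28 in WT ovaries, and the groups overlapped. Its log2 change was -0.11 (SE 0.123, adjusted p = 0.75). The second gave -3.18, -3.33 and -3.11 in KO, against -2.9, -2.71 and -2.66 in WT, a change of -0.45 without overlap that missed the threshold (adjusted p over probes = 0.173). Since the deleted part is not given, these probes could lie outside it and do not check the labels. At the first probe the change was -0.87 at E17.5 (adjusted p = 0.00448) and -1.36 at P0 (adjusted p = 9.03e-06).

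The other family members showed no gene-level call. Elavl1, the ubiquitous member HuR, changed by 0.19 at the probe used, at which KO gave 3.83, 3.78 and 3.83 and WT gave 3.70, 3.60 and 3.57. One of its other probes gave -0.51, -0.69 and -0.46 in KO, against 0.00, 0.01 and -0.02 in WT, a change of -0.55 that passed over probes (adjusted p over probes = 0.0182). The third probe changed by -0.08, so the probes of Elavl1 disagreed in direction, and the mean of its probes gave -0.15. The neuronal members Elavl3 and Elavl4 changed by 0.39 and -0.12, with adjusted p of 0.374 and 0.766. Of the 38 genes of the list of ELAV and germ cell RNA-binding proteins, none rose and 1 fell, Msi2, a Musashi translational regulator, by 0.39 (adjusted p = 0.0445). The other 4 probes of Msi2 changed by at most 0.10 in size.

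Across 19309 genes, 312 passed limma's test at an adjusted p under 0.05, or 1.62% of those tested. In KO ovaries 187 genes were higher (0.968%) and 125 were lower (0.647%), and for each of the 312 the KO and WT arrays did not overlap. Over all genes, 13% had every KO array above every WT array and 10.7% had every KO array below. Only 52 of the calls reached a 2-fold difference, 42 of them higher and 10 lower. The calls rested on a spread estimated over all 18 arrays, with scan run as a term of the fit. Without that term 40 genes passed. Fitted on the 6 E15.5 arrays alone, no gene passed, though 2903 had an unadjusted p under 0.05, against 2832 in the fit of all arrays.

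**Figure D1:**
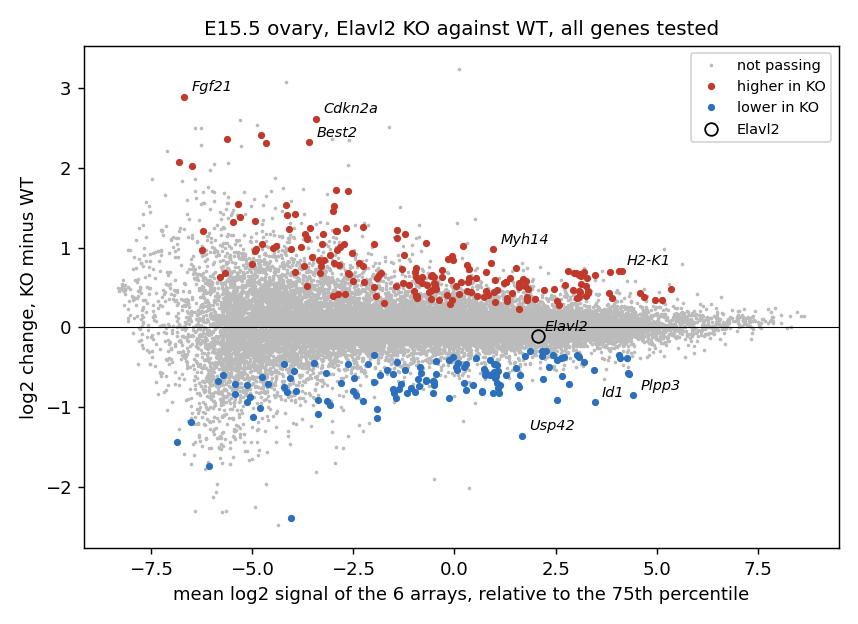
Log2 change of each gene at E15.5, KO minus WT (vertical axis), against its mean log2 signal over the 6 arrays relative to the 75th percentile (horizontal axis); red points are the 187 genes higher in KO, blue points the 125 lower, grey points the rest, and the open circle is Elavl2. The largest rises lie at low signal, while Usp42, Id1 and Plpp3 fell at higher signal.

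The count was sensitive to single arrays. Leaving out WT 2 left 23 calls and leaving out WT 1 or WT 3 left 84 or 86, against 471 without KO 1, 190 without KO 2 and 162 without KO 3. Without slide 3 there were 257 calls, of which 97 were higher and 160 lower, and 134 of these were among the 312. With slide as a random block, 144 of the 312 remained and no other gene was added. In all 6 fits that left out 1 array, 21 genes were called, 13 higher and 8 lower, and each of them was also called with the slide block. The genes with symbols among them were Fgf21, Cdkn2a, Sgip1, Myo18b, Myh14, Slc22a16 and Fam219a, which rose, and Usp42, Pcdhac2, Zyg11b, Plpp3, Rnf182, Tent5b and Ptn, which fell. Of these 21, 9 were called with the replicate block and 10 without the run term. Pcdhac2 had other probes at -0.24 and 0.04, and the mean of its probes, -0.39, did not pass (adjusted p = 0.229).

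Fgf21, an endocrine FGF that acts on metabolism, rose against a signal near background in WT. Its probe, at chr7:52869305-52869364, gave -5.53, -5.00 and -5.16 in KO ovaries and was well above background on all 3, against -8.63, -7.57 and -8.15 in WT ovaries, where it was not well above background on any. The fitted change was 2.89 (adjusted p = 0.00112). Because WT gave only a bound, Fgf21 was at least 2.0-fold higher in KO, set against the lowest signal among probes well above background on every array. At P0 its mean was -6.08 in KO, not well above background on any array, against -4.07 in WT, well above background on all 3, so that it was at least 4.03-fold lower in KO there. The KO minus WT difference thus had opposite signs at the 2 stages. Of the 20 genes of the list of FGF ligands and feedback regulators, Fgf21 was the single call. Klb, the co-receptor through which FGF21 signals, changed by 1.64 and missed the threshold (adjusted p = 0.0506). It gave -4.63, -4.12 and -2.71 in KO, against -5.00, -5.93 and -5.46 in WT. Without KO 3 its change was 1.09 (adjusted p = 0.0729). At E17.5 the same probe was highest in both genotypes on slide 3, at -2.27 in KO 3 and -3.07 in WT 3. Its other probe changed by 0.66, and the mean of its probes, 1.15, did not pass (adjusted p = 0.207).

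Cdkn2a, the locus of the cell cycle inhibitors p16Ink4a and p19Arf, was well above background on all 6 arrays. It gave -2.37, -1.99 and -1.95 in KO ovaries, against -4.60, -5.65 and -3.91 in WT ovaries, with no overlap and the wider spread in WT. The change was 2.61 (SE 0.33, adjusted p = 0.00604), and it was 2.54 without KO 3. Its single kept probe, at chr4:88920545-88920604, does not tell the transcripts of the locus apart here. No other gene of the 19 cell cycle inhibitors and senescence genes was called. Of 44 genes of the p53 response and cell death, 1 rose, Tnfrsf10b, a TRAIL death receptor. Tnfrsf10b gave -3.64, -3.10 and -2.06 in KO, against -4.04, -4.20 and -4.29 in WT, a change of 1.24 (adjusted p = 0.0468) in which KO 3 stood highest. Without KO 3 the change was 0.81 (adjusted p = 0.0462). Its other probes changed by 0.01 and 0.46, and the mean of its probes, 0.57, did not pass (adjusted p = 0.0538). Trp53 changed by 0.45 (adjusted p = 0.129).

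In a further group of rises the KO arrays lay close together. Esrrb, an orphan nuclear receptor of the pluripotency network and of early germ cells, gave -4.55, -4.55 and -4.72 in KO, against -6.23, -5.70 and -6.04 in WT, where 1 of 3 arrays was well above background. It rose by 1.38 (SE 0.256, adjusted p = 0.0235). Sgip1, an endocytic adaptor, rose by 1.33 (SE 0.171, adjusted p = 0.00604), with 1 of 3 WT arrays well above background. Upk3a, a urothelial plaque protein, gave -3.33, -3.35 and -3.46 in KO, against -4.97, -4.77 and -5.02 in WT, a change of 1.54 (adjusted p = 0.0355). Despite that separation it was called in none of the 6 fits that left out 1 array.

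Myh14 and Myo18b were called whichever array was left out. Myh14, the heavy chain of non-muscle myosin IIC, gave 1.18, 1.55 and 1.58 in KO ovaries, against 0.51, 0.41 and 0.46 in WT ovaries, a change of 0.98 (SE 0.125, adjusted p = 0.00604). Myo18b, an unconventional myosin known from striated muscle, gave -1.74, -1.76 and -1.40 in KO, against -2.71, -2.89 and -3.07 in WT, a change of 1.26 (SE 0.15, adjusted p = 0.00604). The second probe of Myo18b changed by 0.47. Its relative Myo18a went the other way and fell by 0.61 (adjusted p = 0.0235). Slc22a16, a carnitine transporter, rose by 0.81 (SE 0.111, adjusted p = 0.00689), with KO arrays at -2.73, -2.67 and -2.27 and WT arrays at -3.45, -3.37 and -3.28.

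A further set of large rises followed KO 3. Best2, a chloride channel, gave -3.29, -2.9 and -1.1 in KO, against -4.46, -4.70 and -5.09 in WT, a change of 2.32 (adjusted p = 0.0227) and of 1.66 without KO 3 (adjusted p = 0.0158). At E17.5 the same probe gave -3.28, -3.09 and -0.55 in KO, against -3.91, -3.73 and -1.65 in WT, highest in both genotypes on slide 3. Hsd3b4, of the 3-beta-hydroxysteroid dehydrogenase family, gave -4.31, -3.95 and -2.23 in KO, against -5.26, -5.72 and -6.43 in WT. Its change of 2.31 was 1.67 without KO 3 and no longer passed (adjusted p = 0.0592). Ghrl, which encodes ghrelin, changed by 1.72, or by 1.29 without KO 3 (adjusted p = 0.0807). Fmn2, a formin needed for spindle positioning in mouse oocytes, rose by 1.23, and by 0.89 without KO 3 (adjusted p = 0.0269). Arg2, the mitochondrial arginase, was instead highest in KO 2, with -4.85, -3.74 and -5.13 in KO and -6.25, -6.03 and -6.07 in WT, a change of 1.54 (adjusted p = 0.0468).

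KO 3 was the highest KO array in 110 of the 187 rises (58.8%) and the lowest in 74 of the 125 falls (59.2%), against 42.2% and 25.2% of all genes. In 33 of the rises it lay at least 0.5 above both other KO arrays. Of those 33 genes, 31 were also higher in E17.5 WT 3, on the same slide, than in the mean of the other 2 WT arrays at E17.5, by a median of 1.49. For the remaining 154 rises that median was 0.10, against 0.08 over all genes. Of all 19309 genes tested, 11803 were higher in E17.5 WT 3 than in that mean. The falls too were low on that slide. For the 125 falls, E17.5 KO 3 lay at a median of -0.44 relative to the other 2 KO arrays at E17.5, and E17.5 WT 3 lay at -0.40 relative to the other WT arrays and above them for 20 of the 125. The part of the slide in these calls was not tested.

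**Figure D2:**
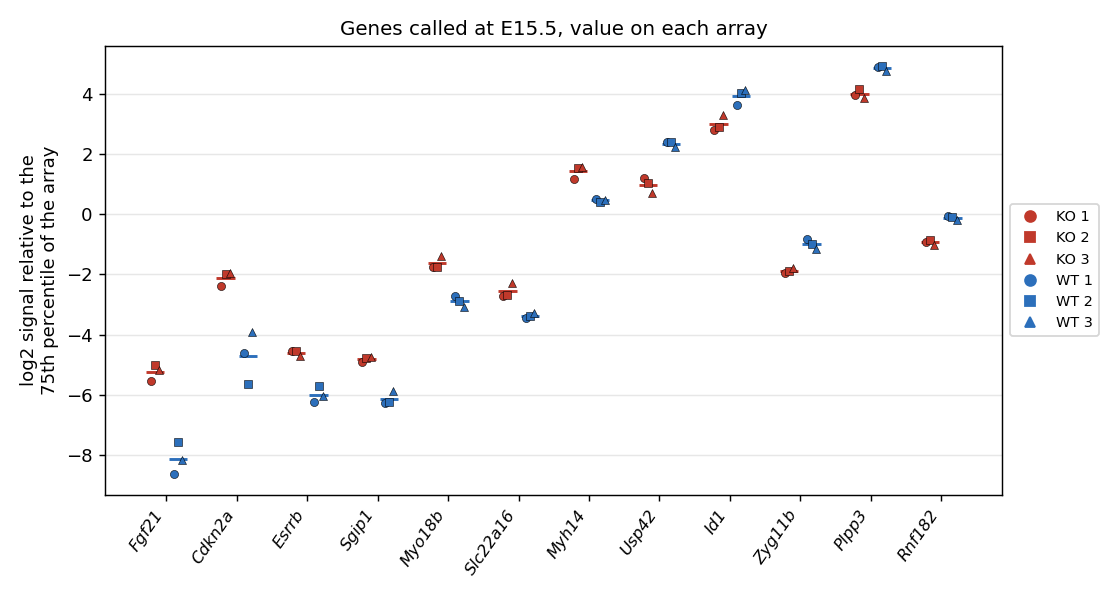
Log2 signal relative to the 75th percentile of the array (vertical axis) for 12 genes called at E15.5, with KO arrays in red left of WT arrays in blue; markers give the replicate and lines the mean of each group. Every gene shows 3 KO values on 1 side of its 3 WT values, with Fgf21 not well above background on any WT array and the widest WT spread in Cdkn2a.

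Most measured genes of the class I major histocompatibility complex (MHC) rose by smaller amounts; the group was chosen after its values were seen. Class I molecules are cell surface proteins that, with beta-2-microglobulin, present peptides to CD8 T cells; in mouse the genes lie on chromosome 17 in the K, D, Q, T and M regions. Of 16 measured class I genes, 10 rose, none fell and 6 did not pass, with rises between 0.62 and 0.81. The median over the 16 was 0.65, against 0.01 over all genes.

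The classical gene H2-K1 gave 4.24, 4.53 and 4.49 in KO ovaries, against 3.78, 3.69 and 3.66 in WT ovaries, a change of 0.71 (SE 0.125, adjusted p = 0.0194). Its other 3 probes changed by 0.69, 0.77 and 0.84. H2-Q7, of the Q region, gave 3.46, 3.64 and 3.58 in KO, against 2.88, 2.88 and 2.82 in WT, a change of 0.70 (adjusted p = 0.0235). H2-T23, which encodes Qa-1 and presents to receptors of natural killer cells, gave 3.28, 3.40 and 3.51 in KO, against 2.75, 2.74 and 2.71 in WT, a change of 0.66 (adjusted p = 0.0405). H2-M2 had the largest rise of the group, 0.81 (adjusted p = 0.0107), with KO arrays at 1.15, 1.33 and 1.42 and WT arrays at 0.46, 0.43 and 0.59. The changes of H2-K2, H2-L, H2-D4, H2-Q4 and H2-Q10 were 0.62, 0.71, 0.62, 0.65 and 0.65. In each of these 9 genes the groups were apart.

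Of the 6 members that did not pass, H2-Q2 and H2-Q1 had every KO array above every WT array, with changes of 0.71 (SE 0.671, adjusted p = 0.695) and 0.62 (SE 0.184, adjusted p = 0.123). H2-T22 and H2-M3 were among the others, with changes of -0.07 (adjusted p = 0.778) and -0.16 (adjusted p = 0.593). A further H2-T22 probe changed by 0.59, and the mean of its probes gave 0.18. B2m, the light chain of every class I molecule, gave 2.94, 3.09 and 3.01 in KO, against 2.76, 2.74 and 2.73 in WT, a change of 0.27 without overlap that missed the threshold (adjusted p = 0.265). Tap1, the peptide transporter subunit, changed by -0.08 (adjusted p = 0.907). None of 13 genes of antigen processing and none of 23 interferon response genes passed, with medians of 0.09 and 0.11; these lists too were chosen after the values were seen. The 23 macrophage and leukocyte genes had no call and a median of 0.12, and the leukocyte marker Ptprc averaged -3.03 ± 0.06 in KO and -3.00 ± 0.22 in WT. The class I probes are not independent of each other: 4 of the 10 shared a run of at least 20 bases with another class I probe, so near-identical transcripts may have been read by several of them. Runs were compared between probes only, not with the other transcripts. The comparison therefore cannot show that the remaining probes read separate transcripts.

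**Figure D3:**
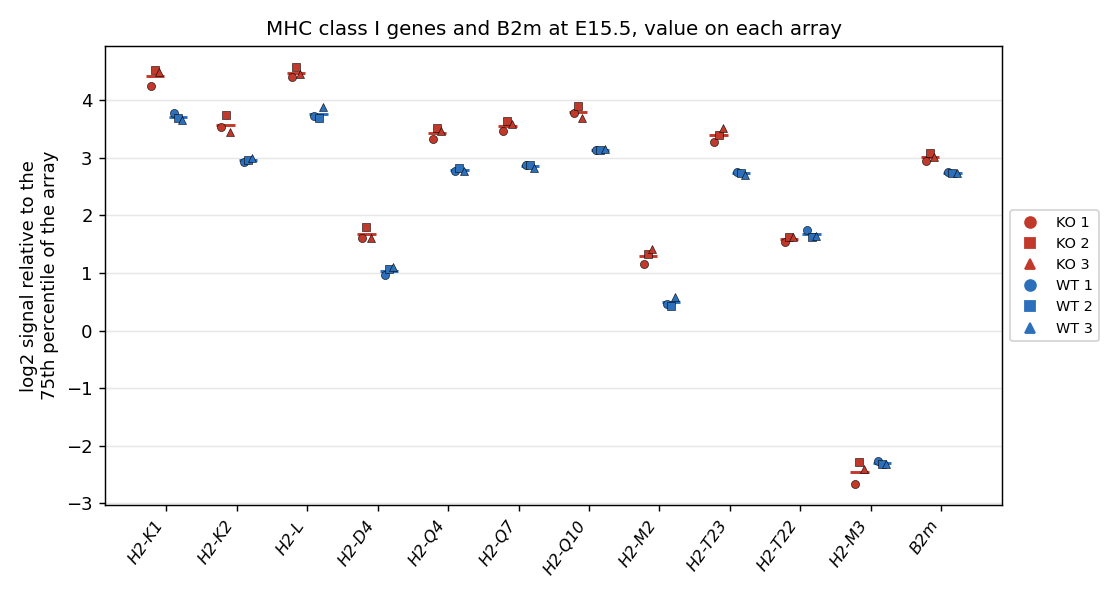
Log2 signal relative to the 75th percentile of the array (vertical axis) for 11 MHC class I genes and B2m, with KO arrays in red left of WT arrays in blue; markers give the replicate and lines the group mean. The first 9 genes show all KO arrays above all WT arrays, while H2-T22 and H2-M3 overlap.

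The class I calls were lost more readily than their size. The median of the 16 genes lay between 0.60 and 0.70 under every alternative tried, but the number of the 16 called changed. It was 7 with slide as a random block, 7 without slide 3, 10 without KO 1, 4 without KO 3 and 0 without WT 2. Without slide 3, the genes no longer called were H2-K1, H2-Q4, H2-T-ps and H2-T23, so the 7 included a gene not called before. At E17.5 the 10 genes that rose at E15.5 changed by 0.24 to 0.63, and 1 passed, H2-K1 (0.63, adjusted p = 0.0169). At P0 they changed by 0.10 to 0.42, and 2 passed. Over all genes 4.15% passed at E17.5 (1.33% higher) and 34.4% at P0 (18.3% higher). The difference between the E15.5 and E17.5 changes passed for none of the 10 (limma, adjusted p under 0.05) and for 0.306% of all genes.

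Of 11 class I genes with a promoter window in the RefSeq table, 3 of the 7 called and 1 of the 4 not called held 1 of the 2 motifs searched. These 4 and H2-Q4, which held neither, are shown (build GRCm38.p6), from 250 bases before to 50 after the start. Capitals mark GGGGA joined to TTCCC, the kappaB element known from class I promoters, and TTTC, any 2 bases and TTTC, the core of the interferon-stimulated response element, both searched on either strand. Of 32851 windows in the table, 0.107% held the first and 3.44% the second. The windows lie at chr17:34000298-34000597 (minus strand, 1 of its 2 windows in the table) for H2-K1, chr17:35438905-35439204 (plus) for H2-Q7, chr17:35379367-35379666 (plus) for H2-Q4, chr17:36032652-36032951 (minus) for H2-T23 and chr17:36042693-36042992 (minus) for H2-T22.
H2-K1: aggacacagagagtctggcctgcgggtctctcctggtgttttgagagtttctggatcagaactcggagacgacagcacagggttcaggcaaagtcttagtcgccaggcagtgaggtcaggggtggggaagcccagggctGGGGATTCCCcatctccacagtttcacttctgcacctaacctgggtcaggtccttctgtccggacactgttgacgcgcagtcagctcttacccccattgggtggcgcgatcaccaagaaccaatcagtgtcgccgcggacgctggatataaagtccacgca
H2-Q7: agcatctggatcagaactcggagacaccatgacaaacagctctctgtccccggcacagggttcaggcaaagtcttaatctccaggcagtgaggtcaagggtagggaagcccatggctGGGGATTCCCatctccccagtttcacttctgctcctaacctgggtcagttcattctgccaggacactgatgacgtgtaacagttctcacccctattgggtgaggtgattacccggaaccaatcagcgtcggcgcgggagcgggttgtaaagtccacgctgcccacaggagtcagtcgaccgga
H2-Q4: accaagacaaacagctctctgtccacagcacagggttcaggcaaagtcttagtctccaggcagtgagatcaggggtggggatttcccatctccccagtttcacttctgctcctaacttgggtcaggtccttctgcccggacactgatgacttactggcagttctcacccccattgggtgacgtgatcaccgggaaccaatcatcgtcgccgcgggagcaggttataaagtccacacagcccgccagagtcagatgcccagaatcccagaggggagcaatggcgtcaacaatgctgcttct
H2-T23: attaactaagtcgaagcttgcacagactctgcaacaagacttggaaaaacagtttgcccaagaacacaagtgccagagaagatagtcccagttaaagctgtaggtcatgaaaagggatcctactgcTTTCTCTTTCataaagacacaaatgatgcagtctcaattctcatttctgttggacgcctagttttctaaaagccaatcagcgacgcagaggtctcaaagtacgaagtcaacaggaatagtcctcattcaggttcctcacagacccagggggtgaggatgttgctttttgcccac
H2-T22: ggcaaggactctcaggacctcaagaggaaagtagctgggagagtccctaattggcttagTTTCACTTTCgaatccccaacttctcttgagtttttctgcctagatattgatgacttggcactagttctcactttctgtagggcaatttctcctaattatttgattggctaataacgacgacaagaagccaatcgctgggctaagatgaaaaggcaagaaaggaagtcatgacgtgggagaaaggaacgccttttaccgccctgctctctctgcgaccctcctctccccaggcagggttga
The kappaB element stood 111 bases before the start in H2-K1 and 133 before it in H2-Q7. The interferon core stood 124 bases before the start in H2-T23, which rose, and 191 before it in H2-T22, which did not pass. H2-Q4, which rose by 0.65, held neither run in these exact letters, and neither did the called H2-M2, H2-Q10 and H2-T-ps or the uncalled H2-Q2, H2-M3 and H2-M9. A match is a description of letters in these windows only.

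Genes of meiotic prophase had 3 calls, all higher in KO. Of 16 genes of the synaptonemal complex and chromosome axis, 1 rose and none fell. Of 22 recombination genes 1 rose, as did 1 of 11 genes of meiotic telomere attachment. Over all genes 0.968% rose. The medians of these lists were 0.20, 0.21 and 0.24, and 9 of 16, 10 of 22 and 7 of 11 genes had every KO array above every WT array, against 13% over all genes. Hormad2, an axis protein that monitors unsynapsed chromosomes, gave 0.52, 0.69 and 0.85 in KO ovaries, against 0.09, 0.09 and 0.01 in WT ovaries, a change of 0.62 (SE 0.1, adjusted p = 0.0123). Rec114, needed for the programmed DNA breaks of meiosis, gave 2.11, 1.91 and 1.95 in KO, against 1.35, 1.30 and 1.5 in WT, a change of 0.61 (SE 0.107, adjusted p = 0.0192), and its other probe changed by 0.60. Terb2, which anchors telomeres to the nuclear envelope, gave -0.31, -0.15 and -0.21 in KO, against -0.87, -0.87 and -0.90 in WT, a change of 0.66 (adjusted p = 0.0189). Of the 6 fits that left out 1 array, Hormad2 and Rec114 were each called in 4 and Terb2 in 2.

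Several partners lay short of the threshold in the same direction. Terb1, the partner of Terb2, changed by 0.40 (adjusted p = 0.0608), Iho1, a partner of Rec114, by 0.46 (adjusted p = 0.0941), and Tex12, of the central element, by 0.42 (adjusted p = 0.0801). Sycp1, the transverse filament of the synaptonemal complex, went the other way. It gave 3.59, 3.68 and 3.50 in KO, against 3.96, 4.06 and 3.98 in WT, a change of -0.41 without overlap (adjusted p = 0.0643). None of the 22 genes of meiotic entry and retinoic acid passed, with a median of 0.10. Stra8, the retinoic acid target that starts meiosis, gave 5.42, 5.84 and 5.72 in KO, against 4.90, 4.32 and 4.79 in WT, a change of 0.99 with a wide error (SE 0.428, adjusted p = 0.306). At E17.5 and P0 Stra8 changed by 2.06 and 3.26.

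Among 25 primordial germ cell and pluripotency genes, Esrrb alone passed and the median was 0.31. Lin28a, an RNA-binding protein of early germ cells, gave -3.73, -3.30 and -3.54 in KO, against -4.68, -5.46 and -4.82 in WT, a change of 1.46 with no overlap that missed the threshold (adjusted p = 0.162). The list's median per KO array, against the WT mean, was 0.07 in KO 1, 0.27 in KO 2 and 0.50 in KO 3. None of 32 pan-germ cell genes passed (median 0.08). Of these, 11 (34.4%) had every KO array above every WT array and 1 the reverse, against 13% and 10.7% over all genes. Of 13 oocyte transcription factors, 1 fell, Zfp148, a zinc finger protein, by 0.38 (adjusted p = 0.0153), while Nobox, required for early follicle growth, changed by 1.03 without overlap and missed the threshold (SE 0.374, adjusted p = 0.208). The other 3 probes of Zfp148 changed by -0.03, -0.04 and -0.29. The 44 genes of oocyte growth and the zona had no call. Their median was 0.34, 0.02 after normexp background correction with quantile normalization, and -0.02 when a gene had to be well above background at E15.5; 13 of the 44 were not above background on any E15.5 array.

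Cell division genes were higher in KO in 3 of 49 cases (0.968% over all genes), and none was lower (0.647% over all genes). Kif23, a kinesin of cytokinesis, rose by 0.46 (adjusted p = 0.028), Bub1, a spindle checkpoint kinase, by 0.44 (adjusted p = 0.0348), and Ndc80, of the outer kinetochore, by 0.37 (adjusted p = 0.0365). Cdc45, of the replicative helicase, changed by 0.40 (adjusted p = 0.0502). The list's median was 0.20, but it was 0.46 in KO 1, against 0.03 in KO 2 and 0.04 in KO 3. KO 1 is the array with the highest median level of the red cell list, followed by WT 1. Without KO 1, 2 of the 49 were called, Kif23 (0.45, adjusted p = 0.0476) and Bub1 (0.47, adjusted p = 0.0385). With slide as a random block none of the 49 passed. The part of red cells in this list was not tested.

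Usp42, a deubiquitinating enzyme, fell in every fit that left out 1 array, though not the furthest of the 125 falls. Usp42 gave 1.21, 1.03 and 0.71 in KO ovaries, against 2.39, 2.39 and 2.23 in WT ovaries, a change of -1.36 (SE 0.147, adjusted p = 0.00324). Its other probe changed by -0.80. Plpp3, a membrane phosphatase that inactivates lysophosphatidic acid, gave 3.97, 4.15 and 3.85 in KO, against 4.88, 4.91 and 4.74 in WT, a change of -0.85 (SE 0.11, adjusted p = 0.00604). Rnf182, an E3 ubiquitin ligase, fell by 0.82, and Zyg11b, a substrate receptor of a cullin ubiquitin ligase, fell by 0.88. Tent5b, a non-canonical poly(A) polymerase, fell by 0.78 and Ptn, the growth factor pleiotrophin, fell by 0.44, with KO at 3.01, 2.92 and 3.00 and WT at 3.42, 3.41 and 3.41. For the genes from Plpp3 to Ptn the groups were apart and the adjusted p was between 0.00604 and 0.00689. Rufy2, an endosomal adaptor, fell by 0.91 (adjusted p = 0.00758).

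Of 35 genes of BMP signalling and its ID targets, none rose and 1 fell, with a median of -0.14. Of the 35, 12 had every KO array below every WT array and none the reverse, against 10.7% and 13% over all genes. The list's median against the WT mean was -0.22 in KO 1, -0.09 in KO 2 and -0.06 in KO 3. Some other lists leaned the same way. Every KO array lay below in 8 of 46 WNT pathway, 6 of 23 pregranulosa and ovarian identity and 5 of 22 endothelial genes, and above in 0, 1 and 1. Id1, an inhibitor of basic helix-loop-helix factors and a direct BMP target, gave 2.78, 2.91 and 3.28 in KO ovaries, against 3.63, 4.04 and 4.12 in WT ovaries. It fell by 0.94 (SE 0.143, adjusted p = 0.00997), and its other probe changed by -0.95. Id4 and Id3 changed by -0.53 and -0.32 without overlap and missed the threshold (adjusted p = 0.073 and 0.122). Nog, the BMP antagonist noggin, changed by -0.78 (adjusted p = 0.186). Fst, the activin antagonist follistatin of pregranulosa cells, gave 2.26, 2.48 and 1.86 in KO, against 2.82, 2.69 and 2.66 in WT, a change of -0.52 (adjusted p = 0.143).

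Single members fell in other lists. Wnt3, a WNT ligand, gave -5.51, -5.45 and -5.68 in KO, with 1 of 3 arrays well above background, against -4.94, -4.21 and -4.12 in WT, a change of -1.12 (adjusted p = 0.0297). Its other probe changed by -0.19, and no other of the 46 WNT pathway genes passed. Dtx1, a ligase of the Notch pathway, fell by 0.35 (adjusted p = 0.0332), as the single call of 23 Notch genes. Tek, the angiopoietin receptor TIE2, fell by 0.46 (adjusted p = 0.0344), the single call of 22 endothelial genes, while its other probe changed by 0.10. Ppargc1a, a coactivator of mitochondrial biogenesis, gave -2.50, -2.29 and -2.50 in KO, against -1.49, -1.47 and -1.26 in WT, a change of -1.02 (adjusted p = 0.0395). It was called in none of the fits leaving out 1 array, and its other probe changed by -0.11. In its list of 25 genes of mitochondrial biogenesis and oxidation, Esrrb rose, and the median was 0.04.

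Some genes that act on RNA fell and others rose; they were chosen in part after the values were seen and form no list. Ago3, an Argonaute, Lsm8, which binds U6 small nuclear RNA, and Papolg, a poly(A) polymerase, rose by 0.64, 0.46 and 0.38. Dicer1, the microRNA-processing nuclease, gave 0.87, 0.77 and 0.43 in KO, against 1.39, 1.54 and 1.44 in WT, a change of -0.77 (SE 0.147, adjusted p = 0.0247), and its other probe changed by -0.20. Thoc2, of the mRNA export complex THO, fell by 0.73 (adjusted p = 0.0267), with other probes at -0.44, -0.36 and -0.54. Tut4, a terminal uridylyltransferase, fell by 0.65, and Upf3b, of nonsense-mediated decay, by 0.60, with other probes between -0.08 and -0.39 for Tut4 and between -0.11 and -0.24 for Upf3b. Dnmt3a, a de novo DNA methyltransferase, fell by 0.82 (adjusted p = 0.0227), against -0.09 and -0.17 at its other probes.

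A list of 40 centrosome and centriolar satellite genes, chosen after the values were seen, had 6 falls and 2 rises and a median of 0.02; over all genes 0.647% fell and 0.968% rose. The falls included Ckap5, a microtubule polymerase, at -0.89, Pcm1, the satellite scaffold, at -0.72, Cep290, of the ciliary transition zone, at -0.71, and Cdk5rap2, of the pericentriolar material, at -0.66. The other probe of Cdk5rap2 changed by -0.69. For Ckap5, Pcm1 and Cep290 every other probe lay between -0.13 and 0.10. Without KO 3 the list had 1 fall, while the changes of Ckap5, Pcm1, Cep290 and Cdk5rap2 were -0.79, -0.62, -0.63 and -0.73. Such disagreement between probes was common among the falls: of 74 genes that fell and had further probes, all further probes showed at least 0.5 of the change in 16, against 28 of 55 genes that rose. At least 1 further probe went the opposite way in 22 of the 74 falls and in 13 of the 55 rises. Which transcripts of a gene each probe reads was not resolved here.

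**Figure D4:**
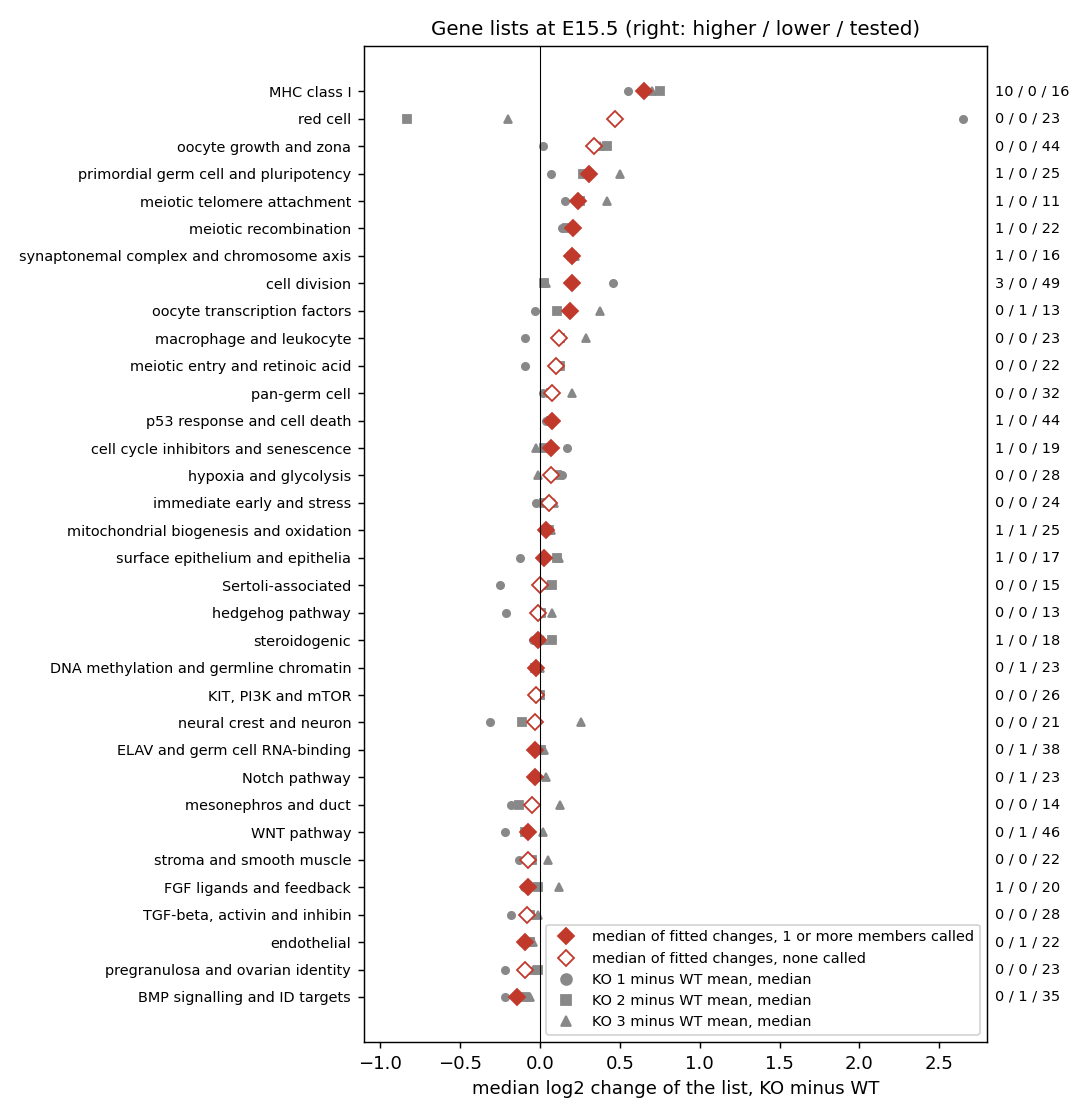
Median log2 change of 34 gene lists at E15.5 (diamonds, filled where at least 1 member was called), with the median of each KO array minus the WT mean as grey markers; the numbers at right give genes higher, lower and tested. MHC class I, chosen after its values were seen, has the highest median at 0.65, the red cell list spreads from KO 2 at -0.83 to KO 1 at 2.65, and BMP signalling has the lowest median at -0.14.

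Somatic and pathway lists beyond these had no or 1 call. The lists of pregranulosa and ovarian identity (23 genes, median -0.09), Sertoli-associated genes (15), mesonephros and duct (14), stroma and smooth muscle (22), neural crest and neuron (21), TGF-beta, activin and inhibin (28), hedgehog (13), KIT, PI3K and mTOR (26), immediate early and stress (24) and hypoxia and glycolysis (28) had none by limma. The medians of these lists lay between -0.09 and 0.07. The lists of steroidogenic genes (18) and of surface epithelium (17) had 1 rise each, Hsd3b4 and Upk3a. Foxl2 and Wnt4, which specify the ovary, changed by -0.19 and 0.04, and both were well above background on all 6 arrays.

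Genes near Elavl2 on chromosome 4 were called more often than the genes as a whole. Within 20 Mb of the Elavl2 probe, 184 genes were tested and 15 were called (8.15%, against 1.62% over all genes), 7 higher and 8 lower, with a median change of 0.04. They included Cdkn2a, Hacd4, Sgip1, Plpp3, Zyg11b, Tut4 and Tek. Hacd4, an enzyme of very long chain fatty acid synthesis, gave -0.63, -0.43 and -0.37 in KO, against -1.09, -1.19 and -1.06 in WT, a change of 0.64 (SE 0.0871, adjusted p = 0.00689), and its other probe changed by 0.09. The labels give no strain for either genotype, and sequence differences between strains near the locus were not tested.

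Calls at E15.5 were set beside the same contrast at the later stages, which used other arrays but shared slide 3 with E17.5. All these contrasts came from the same fit with a common spread per gene, so calls at different stages are not independent of each other. Of the 312 genes, 62 were called in the same direction at E17.5 and 5 in the opposite one, where 4.15% of all genes were called. By direction, 47 of the 125 falls (37.6%) but 15 of the 187 rises (8.02%) were called the same way at E17.5. Over all genes 2.82% were called lower and 1.33% higher at that stage. The difference between the shares of falls and rises was not tested. At P0, where 34.4% of all genes were called (18.3% higher and 16.1% lower), 109 of the 312 were called in the same direction and 49 in the opposite one. Over all genes the changes correlated at 0.30 with those at E17.5 and at -0.04 with those at P0, as a description across genes.

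The change at E15.5 differed from that at E17.5 for 59 genes (0.306% of those tested), 21 of them among the 312, and from that at P0 for 3847 genes (19.9%), 161 of them among the 312. The 312 were selected on the E15.5 arrays that enter these differences, which raises such counts. Myh14 rose at E15.5 and fell by 1.13 at P0 (adjusted p = 4.19e-05), and Myo18b fell by 0.54 at P0 (adjusted p = 0.0145). Terb2, which rose by 0.66, fell by 0.44 at E17.5 (adjusted p = 0.0493) and by 0.57 at P0 (adjusted p = 0.00242). Wnt3 fell at E15.5 and was at least 2.4-fold higher in KO at P0 (adjusted p = 5.10e-05), with a mean of -4.25 in KO and of -6.25 in WT, where no array was well above background. Id1 was lower at E15.5 and at E17.5 (-0.81, adjusted p = 0.0119), with a change of 0.09 at P0.

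At all 3 stages 39 genes were called in the same direction, 10 higher and 29 lower, and 9 of the 39 (23.1%) lay on chromosome 4, which held 6.1% of the genes tested. Hacd4 changed by 0.64, 0.81 and 0.70 at E15.5, E17.5 and P0. Among the falls, Dicer1 changed by -0.77, -0.92 and -0.84, Pcm1 by -0.72, -0.67 and -0.56, Cep290 by -0.71, -0.71 and -0.63, and Cdk5rap2 by -0.66, -0.56 and -1.05. Cdkn2a changed by 2.61, 0.97 and 1.63 and passed at E15.5 and P0.

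**Figure D5:**
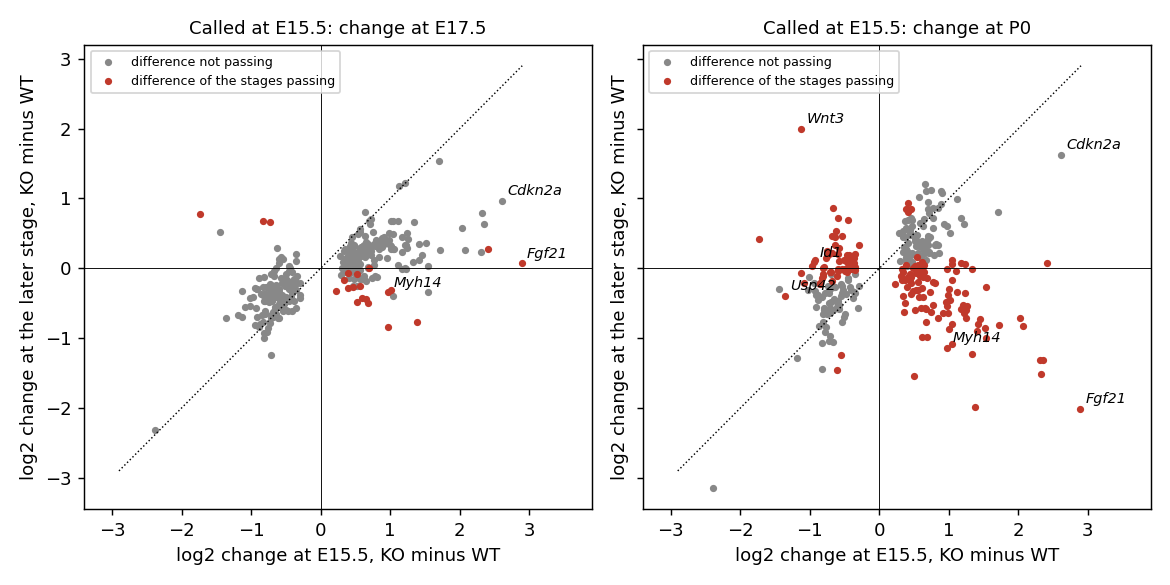
Log2 change at E17.5 (left) and at P0 (right), KO minus WT, of the 312 genes called at E15.5, against their log2 change at E15.5; the dotted line marks equal change, and red points are genes whose difference between the stages passed the test, 21 at E17.5 and 161 at P0. At P0 many genes that rose at E15.5 lie below 0, Fgf21 among them, and Wnt3 lies above 0; at P0 no KO array was well above background for Fgf21 and no WT array for Wnt3.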

How the data were processed

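The deposited scanner files hold intensities per spot, background-subtracted by Agilent Feature Extraction 10.7.3.1 per the file headers (9.5 per the submitters' processing notes), with coordinates on mm9. The deposited series matrix holds log2 values and was used as an alternative. Control spots and outlier spots (51 to 86 per E15.5 array) were left out. The intensities were put on the log2 scale and each array's 75th percentile was subtracted. Probes had to be well above background on every array of 1 or more of the 6 groups, and 29215 were kept. The kept probe with the highest mean stood for its gene, named through RefSeq accessions where they matched, giving 19309 genes. limma 3.58.1 in R 4.3.3 was fitted to all 18 arrays with group and scan run as terms (lmFit and eBayes, 11 residual degrees of freedom). Every E15.5 array was of 1 scan run and every P0 array of the other. Only E17.5 mixed the runs, with slide 3 in the run of the E15.5 arrays. The run term therefore left the E15.5 differences unchanged and entered their p-values through the shared spread. It took the departure of slide 3 at E17.5 out of that spread, not out of the E15.5 differences. The call was an adjusted p under 0.05 (Benjamini-Hochberg, over all genes), and the script was tested on simulated data. A further 21 settings were tried. With 3 arrays a group, precision is limited.

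Members, 34 gene lists and 4 added lists were chosen with earlier results of these data known; 1 of the lists is not reported here. Genes eligible for naming were the 20 largest rises and falls, up to 6 genes per list, called list members, called genes within 20 Mb of Elavl2, genes called at all 3 stages and the ELAV family; 20 of the 77 genes tracked through the settings fall outside this rule and were chosen after their values were seen. Same-numbered KO and WT arrays correlated in their deviations at 0.18, 0.21 and -0.12, so numbers were not taken as pairs.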

Additional observations from a re-analysis of the deposited data

Results flagged for a closer look

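Some named genes changed differently at E15.5 and at a later stage by limma's test of the difference (adjusted p under 0.05). The values are the log2 change, KO minus WT, at E15.5 minus the same change at the later stage. Against E17.5 the genes were Fgf21 (2.82), Esrrb (2.14), Myh14 (1.32), Terb2 (1.10) and Fam219a (0.70). The E15.5 change was the higher one against P0 for Fgf21 (4.90), Best2 (3.84), Hsd3b4 (3.62), Esrrb (3.37), Klb (3.24), Arg2 (2.54), Ghrl (2.53), Myh14 (2.11), Tnfrsf10b (1.96), Upk3a (1.81), Myo18b (1.80) and Fmn2 (1.58). The same held by smaller amounts for Sgip1 (1.33), Elavl2 (1.25), Terb2 (1.22), Elavl3 (1.09), Slc22a16 (1.02), Rec114 (0.88), Ndc80 (0.86), Kif23 (0.67), H2-K2 (0.52), Bub1 (0.52) and Cdc45 (0.47). The E15.5 change was the lower one against P0 for Wnt3 (-3.12), Stra8 (-2.28), Id4 (-1.25), Id3 (-1.07), Id1 (-1.03), Pcdhac2 (-1.0), Usp42 (-0.96) and Sycp1 (-0.76). The same held by smaller amounts for Rnf182 (-0.69), Tek (-0.66), Plpp3 (-0.65), Upf3b (-0.56), Dtx1 (-0.56), Msi2 (-0.56), Ptn (-0.51) and Zfp148 (-0.36). For Best2, Hsd3b4, Klb, Ghrl, Tnfrsf10b, Fmn2 and Slc22a16, KO 3 on slide 3 was the highest KO array at E15.5. At E17.5 the same probes were highest in both genotypes on that slide, and no P0 array lay on it. The part of slide 3 in these differences was not tested. Some of the differences listed above rest on signal near background. No array was well above background in either genotype at E17.5 for Fgf21, in either genotype at E17.5 and P0 for Sgip1, in P0 KO for Fgf21 and Esrrb, in P0 WT for Wnt3 and in E15.5 WT for Fgf21. Esrrb was well above background on 1 of 3 arrays in E15.5 WT and in both genotypes at E17.5. Groups of 3 arrays were too small for a test of single outlying arrays.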

How the results depend on the processing

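The count of 312 calls stayed within 1.5 times under normexp with quantile normalization, quantile normalization, array median scaling, the series matrix values and the E15.5 filter. It also did with the mean of probes, trended and robust moderation and the fit without slide 3. In these settings the 125 lower stayed within that range too. The 187 higher did not under array median scaling (121) and without slide 3 (97). No filter on dim probes gave 207 calls (80 lower), no run term 40 (31 higher, 9 lower), array weights 936 (559 and 377) and slide as a random block 144 (84 and 60). The 6 E15.5 arrays alone gave 0, a fit with 4 residual degrees of freedom. At least 2-fold, 52 passed (42 and 10). The fit with the replicate block gave 19 calls (13 and 6), 17 of them among the 312. Leaving out 1 array gave 23 to 471 calls, 15 to 344 higher and 8 to 127 lower. The genes that differed between E15.5 and E17.5, 59 in number, were 99 with normexp, 19 with median scaling and with array weights, 5 with no filter, 11 with no run term, 10 with the slide block, 1 with the replicate block, 39 without slide 3, 31 at 2-fold and 0 to 54 leaving out 1 array. The 3847 that differed between E15.5 and P0 were 2365 with no run term, 1183 at 2-fold and 2606 to 3451 leaving out 1 array. With the mean of probes Elavl1 changed by -0.15 and H2-T22 by 0.18, both turning sign without a call. The cause of these shifts was not tested.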
